A study of Rattus norvegicus with 6 samples.

Results

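JA is a rat esophageal tumor cell line whose tumor arose under reflux, in which stomach contents wash back over the esophageal lining. Its RNA was set against a normal pool on 2-colour cDNA arrays, and the 2 arrays on which JA shared a slide with that pool were chosen from the 6 of the series. The pool held equal parts of RNA from a pair of normal rat esophageal cell lines, named Normal1 and Normal2 in the labels. On 1 array JA carried the dye Cy3 and the pool Cy5, and on the other the dyes were exchanged. Both arrays therefore hold the same RNA of 1 line and 1 pool and count as 1 replicate, with no test of JA against the pool. The other 4 arrays hold the tumor lines JB and Amy, each reflux-induced and each against the same pool in both dye orientations. The labels give no sex or age of the animals, no passage number and no treatment of the cultures, and neither normal line was hybridized alone on the arrays used here.

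Each array carried 16128 spots with 0 missing values, printed as 8064 clones in duplicate. The mean over the spots of a gene symbol gave 3158 named genes, 2503 of them from 1 clone. Duplicate spots correlated at 0.928 and 0.913 within the JA arrays. Values are log2 ratios of JA over the pool, so that 1 stands for a 2-fold difference. Pairs of values are given with the array that had JA in Cy3 first and the array that had JA in Cy5 second. The direction is likely rather than settled, since it rests on the titles, which name the line before the pool. Base 2 was assumed, because no source names the log base. A gene was called higher or lower where its log2 ratio was at least 1, or at most -1, on both arrays. The words rose and fell are used for such genes alone.

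Reflux injures the squamous lining of the esophagus, and long exposure is a known setting for columnar metaplasia and adenocarcinoma. A dividing cell is driven into DNA replication by D-type and E-type cyclins with their kinases, copies its DNA with polymerases, clamps and clamp loaders, and is taken through mitosis by Cdk1, Plk1 and the anaphase-promoting complex. Connective tissue cells, by contrast, are known by the collagens, proteoglycans and growth factor binding proteins that they secrete.

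Of the 3158 named genes, 266 (8.42%) were higher in JA and 451 (14.3%) were lower. The arrays shared a sign for 2594 genes, 1195 positive and 1399 negative, and correlated at 0.877 across named genes, which are not independent replicates. The fallen genes went further from 0 than the risen ones. A mean of -4 or lower was reached by 52 genes and a mean of 4 or higher by 3, and the medians of the lower and higher genes were -1.83 and 1.54. The median of all named genes was -0.08. Between the dye orientations a gene differed by a median of 0.308, with an SD of the difference of 0.633. Another 517 genes were past the limit on 1 array alone, and 13 were past it with opposite signs, among them the leukocyte sialoglycoprotein gene Spn at 3.55 and -1.09. Just inside the limit lay Tet2 (1.09 and 1.00) and Mccc1 (-1.01 and -1.03), and just outside it Mtch2 (0.998 and 1.27) and Gpt (-0.996 and -1.65).

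**Figure D1:**
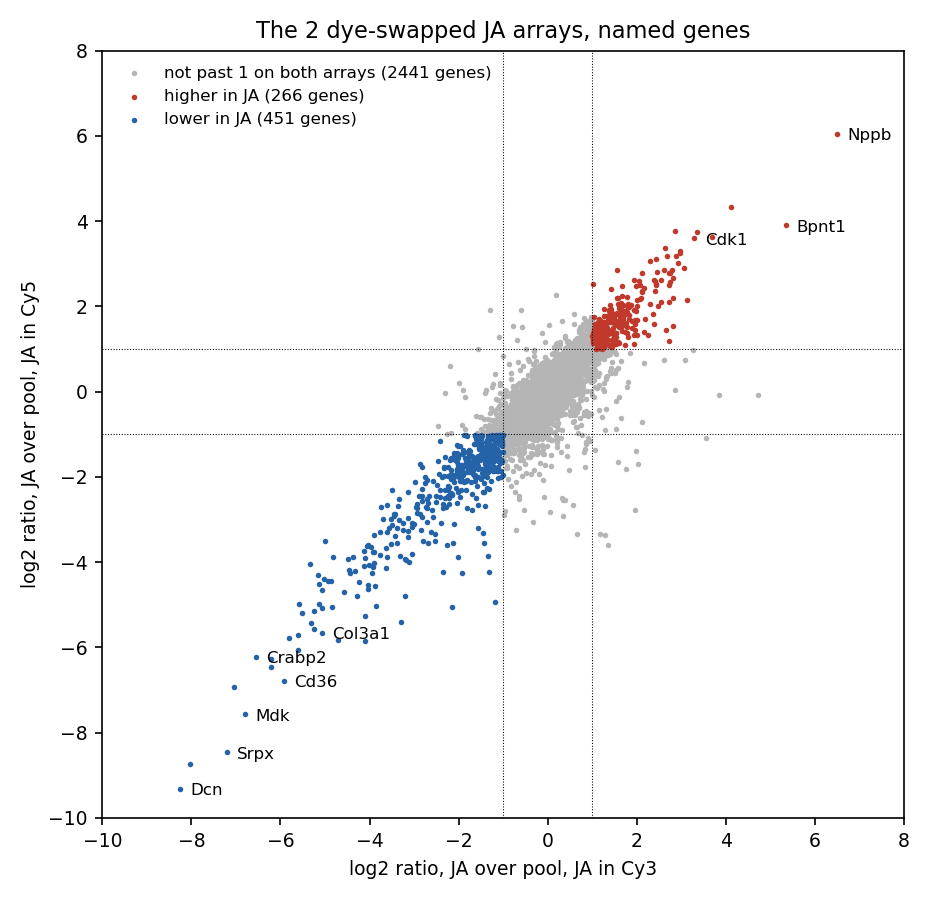
Log2 ratio of JA over the normal pool for 3158 named genes, with JA in Cy3 on the horizontal axis and JA in Cy5 on the vertical axis; each point is 1 gene and dotted lines mark ratios of -1 and 1. The 266 higher genes (red) reach 6.51 and 6.05 at Nppb, while the 451 lower genes (blue) extend to -8.26 and -9.32 at Dcn.

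The highest gene in JA was Nppb, which encodes the precursor of B-type natriuretic peptide, a hormone best known from the heart. Its log2 ratio was 6.51 and 6.05, or 77.6-fold for the mean of the arrays. Bpnt1, a phosphatase of bisphosphate nucleotides, followed at 5.35 and 3.90. Lmo1, a LIM-domain regulator of transcription, stood at 4.13 and 4.33. These 3 were the only genes with a mean of 4 or higher, and each rests on 1 clone. Aldose reductase (Akr1b1), which reduces glucose and lipid aldehydes, was at 3.70 and 3.63. Its 2 clones disagreed, however, with means of 6.18 and 1.15.

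Metabolic, cytoskeletal and secreted products made up most of the other genes among the 15 highest. Arpc1b, a subunit of the complex that nucleates branched actin, stood at 2.87 and 3.77, and moesin (Msn), which ties actin to the cell membrane, at 2.80 and 2.86. Metallothionein (Mt2A), a metal-binding protein, was at 2.97 and 3.31. Ornithine decarboxylase (Odc1), the entry enzyme of polyamine synthesis, was at 2.92 and 3.03. The kidney-type sodium-glucose cotransporter Slc5a2 rose to 2.89 and 3.17, the mitochondrial ribosomal protein Mrps18b to 2.63 and 3.38, and the opioid precursor proenkephalin (Penk) to 2.67 and 3.19. The other 4 of the 15 were the cell-cycle genes Ccne1, Cdk1, Plk1 and Cdc20, given with their group. On all 15 genes the arrays lay on the same side of 2, so none of these ratios depended on 1 dye orientation for its call.

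Decorin (Dcn), a small proteoglycan that binds collagen fibrils, was the lowest gene at -8.26 and -9.32, or 443-fold lower in JA, with its 2 clones at -9.94 and -7.64. The collagen chain Col1a2 stood at -8.03 and -8.74, and both of its clones gave the same reading, -8.40 and -8.37. Srpx, a sushi-repeat protein, was at -7.21 and -8.47. Without spot intensities a ratio this low may only be the bound that a dim channel allows.

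The other 12 of the 15 lowest genes covered growth factors, lipid and retinoid handling, signalling and adhesion. The heparin-binding growth factor midkine (Mdk) was at -6.79 and -7.57, and the calcineurin regulator Rcan2 at -7.04 and -6.94. The retinoic acid carrier Crabp2 stood at -6.55 and -6.22, and the fatty acid receptor Cd36 at -5.93 and -6.78. Galectin-7 (Lgals7), a lectin of stratified squamous epithelium, fell to -6.21 and -6.47, with its 3 clones between -6.81 and -5.56. Bcl10, an adaptor that relays antigen receptor signals to NF-kappaB, was at -6.22 and -6.27. The adhesion-type receptor Adgrf4 was at -5.82 and -5.79, and the transmembrane protein Tmem45b at -5.60 and -6.05. The secreted proteins Igfbp6, which binds insulin-like growth factors, and Nbl1, a BMP antagonist, were at -5.61 and -5.71 and at -5.31 and -5.42. Entpd1, which removes extracellular ATP, stood at -5.24 and -5.57, and the fibrillar collagen Col3a1 at -5.07 and -5.67. Each of these genes was below -5 on both arrays.

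**Figure D2:**
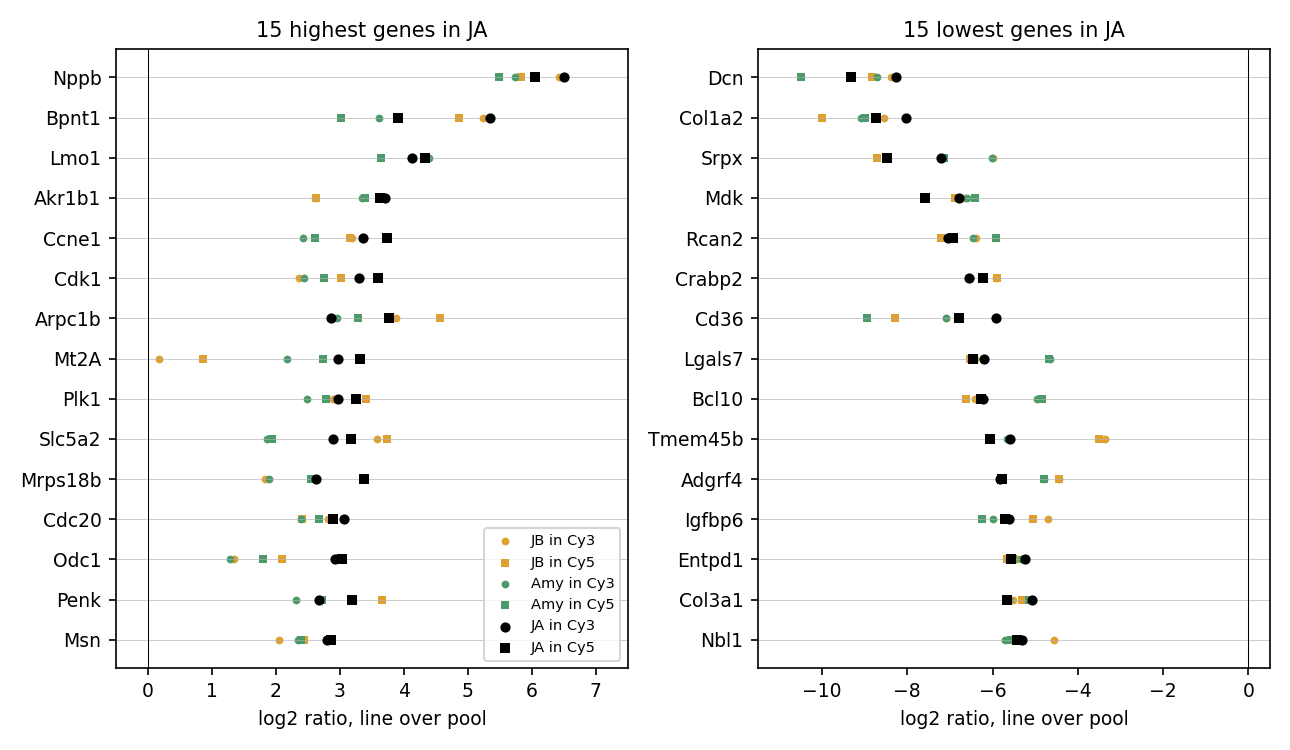
Log2 ratio over the pool of the 15 highest and 15 lowest genes in JA, 1 row per gene; circles are arrays with the line in Cy3, squares arrays with the line in Cy5, JA in black, JB in orange and Amy in green. The JA arrays lie close together, the widest gap being that of Bpnt1 at 5.35 and 3.90, and JB at 0.17 and 0.85 stands away from JA and Amy for Mt2A.

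The label of an esophageal epithelial tumor could be checked only in part. Of 9 squamous markers 1 was measured, Lgals7, and it fell. Of 9 columnar markers 2 were measured and neither was past the limit: keratin 8 (Krt8), a filament of simple epithelium, stood at -0.28 and 0.50, and the trefoil factor Tff3 at -0.93 and 0.01. The general epithelial markers Cdh1, Epcam, Dsp, Jup and Cldn7 were not among the named genes. Of 6 fibroblast markers 5 were measured and all 5 fell, with means from -8.79 to -2.54, beside 14.3% of all named genes lower. Markers of smooth muscle (1 of 5 measured), leukocytes (3 of 5), endothelium (2 of 4) and fat cells (1 of 4) gave 1, 2, 1 and 1 lower genes and 0 higher. A ratio shows no level, so whether any of these markers was near background in JA or in the pool is not known, and the part of other cell types in the pool was not tested. A smaller share of a cell type and less RNA per cell cannot be told apart here.

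Genes of cell division and DNA replication were the group most often higher among the 33 lists. Of 95 symbols on that list 25 were measured, of which 16 rose, 1 fell and 8 did neither, against 8.42% of all named genes higher and 14.3% lower. The median of the 25 was 1.40, beside -0.08 for all named genes. Cyclin E1 (Ccne1), which starts DNA replication with its kinase, was at 3.36 and 3.74. Cdk1, the kinase that drives entry into mitosis, was at 3.29 and 3.60, its clones at 3.42 and 3.48. The mitotic kinase Plk1 stood at 2.97 and 3.25, and Cdc20, which activates the anaphase-promoting complex, at 3.06 and 2.90. On the mean of the arrays these 4 ranged from 7.88-fold for Cdc20 to 11.7-fold for Ccne1.

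The promoters of these 4 genes are shown because these genes rose most within the list. Each window holds 300 bases, from 250 before the annotated start to 50 after it, in RefSeq's rat assembly GRCr8, read 5′ to 3′ on the gene's strand. Capitals mark motifs searched on both strands: the CCAAT box (CCAAT), the cell cycle genes homology region (CHR; TTTGAA or TTCGAA) and an E2F-type site (TTTCCCGC, TTTCGCGC or TTTGGCGC). A CCAAT box and a CHR can share a base at their ends. The windows lie at chr1:99927860-99928159 on the minus strand for Ccne1, chr20:19265043-19265342 on the plus strand for Cdk1, chr1:186147408-186147707 on the plus strand for Plk1 and chr5:137255750-137256049 on the minus strand for Cdc20.
Ccne1: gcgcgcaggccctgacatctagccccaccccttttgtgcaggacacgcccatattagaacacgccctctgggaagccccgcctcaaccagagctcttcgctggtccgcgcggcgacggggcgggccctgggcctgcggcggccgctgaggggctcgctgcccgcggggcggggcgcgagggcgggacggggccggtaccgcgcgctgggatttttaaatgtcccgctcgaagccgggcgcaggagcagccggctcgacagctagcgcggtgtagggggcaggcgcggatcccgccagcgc
Cdk1: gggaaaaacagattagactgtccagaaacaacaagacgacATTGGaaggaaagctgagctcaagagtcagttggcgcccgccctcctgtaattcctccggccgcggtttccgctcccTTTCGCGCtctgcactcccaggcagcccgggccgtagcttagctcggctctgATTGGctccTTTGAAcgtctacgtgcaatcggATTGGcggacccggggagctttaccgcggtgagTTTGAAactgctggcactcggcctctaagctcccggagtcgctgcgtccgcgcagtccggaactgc
Plk1: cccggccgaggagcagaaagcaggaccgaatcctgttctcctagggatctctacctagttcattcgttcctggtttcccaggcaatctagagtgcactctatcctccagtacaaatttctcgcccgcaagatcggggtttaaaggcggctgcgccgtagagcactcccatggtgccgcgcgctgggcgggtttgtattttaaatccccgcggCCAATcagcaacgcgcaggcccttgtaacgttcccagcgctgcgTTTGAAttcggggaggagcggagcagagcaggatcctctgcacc
Cdc20: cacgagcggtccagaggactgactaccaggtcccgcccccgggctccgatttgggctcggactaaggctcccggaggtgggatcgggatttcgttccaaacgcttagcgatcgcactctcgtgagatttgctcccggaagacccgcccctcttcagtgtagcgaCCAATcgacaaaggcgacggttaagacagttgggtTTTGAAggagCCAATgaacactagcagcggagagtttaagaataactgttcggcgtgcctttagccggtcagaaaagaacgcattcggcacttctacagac

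The mitotic genes Cdk1, Plk1 and Cdc20 held both a CCAAT box and a CHR in this window, with 3, 1 and 2 CCAAT boxes and 2, 1 and 1 CHRs, and Cdk1 also held 1 E2F-type site. Ccne1 held no match to these letters. Of the 16 higher cell-cycle genes 14 had a promoter in the table, and 9 of these (64.3%) held a CCAAT box, 7 (50%) a CHR and 2 (14.3%) an E2F-type site. Over all 27457 genes with a promoter the shares were 37.7%, 19.5% and 1.82%, and over the 2646 named genes of the array that had one 37.0%, 12.6% and 3.14%. Among all higher genes the shares were 42.3%, 16.7% and 5.73%, and among all lower genes 35.8%, 11.1% and 2.5%. A match is a description of letters and was not tested as a site.

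Of the clamp-loader subunits Rfc4 and Rfc2 rose, at 2.75 and 2.58 and at 2.06 and 2.59, and Rfc1, at 0.01 and 0.02, did not pass. Other replication genes that rose were the flap endonuclease Fen1 at 2.13 and 2.33, the polymerase subunit Pola1 at 1.33 and 1.64 and the sliding clamp Pcna at 1.45 and 1.37. Among the cyclins and kinases of the first growth phase, Cdk4 rose to 1.43 and 1.95, Ccnd2 to 1.46 and 1.72 and Ccnd1 to 1.16 and 1.45. Ccnd3, at 0.99 and 1.32, missed the limit on 1 array. Cks2, Bub3, Pttg1 and Cks1b, which serve kinases and the mitotic checkpoint, rose too, with the lowest value 1.02 for Cks1b. Cyclin B2 (Ccnb2), a partner of Cdk1, was the 1 member that fell, at -1.57 and -3.20, and its arrays differed more than those of most genes. The mitotic kinase Aurkb did neither at 0.01 and -0.96, nor did the inhibitor Cdkn1b at -0.55 and -0.40.

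In glycolysis and hypoxia 9 of 25 measured genes (36%) rose and 3 (12%) fell, with a median of 0.42. Among all named genes 8.42% rose and 14.3% fell. Hif1a, the oxygen-regulated transcription factor, was at 3.13 and 2.14, its target Vegfa at 1.77 and 1.86, the glycolytic enzyme Eno1 at 1.67 and 1.83 and the lactate transporter Slc16a1 at 1.76 and 1.61. Pfkfb2, which sets the pace of glycolysis, rose to 1.96 and 1.60, and the pentose phosphate enzyme Tkt to 1.13 and 1.62. Other genes known to respond to low oxygen went both ways. Ndrg1 rose to 1.31 and 1.29, and P4ha1, at 1.31 and 0.88, missed the limit on 1 array. Bnip3, a mitochondrial protein of mitophagy, fell to -4.04 and -4.53 and the collagen lysyl hydroxylase Plod2 to -4.11 and -3.90. Pdk1 (0.13 and 0.22) and Ddit4 (-0.24 and -0.13) did not pass. Pdk4, an inhibitor of pyruvate oxidation, fell to -1.48 and -1.91. A further 6 enzymes of glycolysis did not pass. Lactate dehydrogenase A (Ldha) was at 0.90 and 1.45, glucose phosphate isomerase (Gpi) at 0.87 and 0.78, the phosphofructokinase Pfkl at 0.20 and 0.64, the aldolases Aldoa and Aldoc at 0.15 and -0.06 and at -0.26 and -0.43, and the pyruvate kinase Pklr at -2.27 and -0.99.

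**Figure D3:**
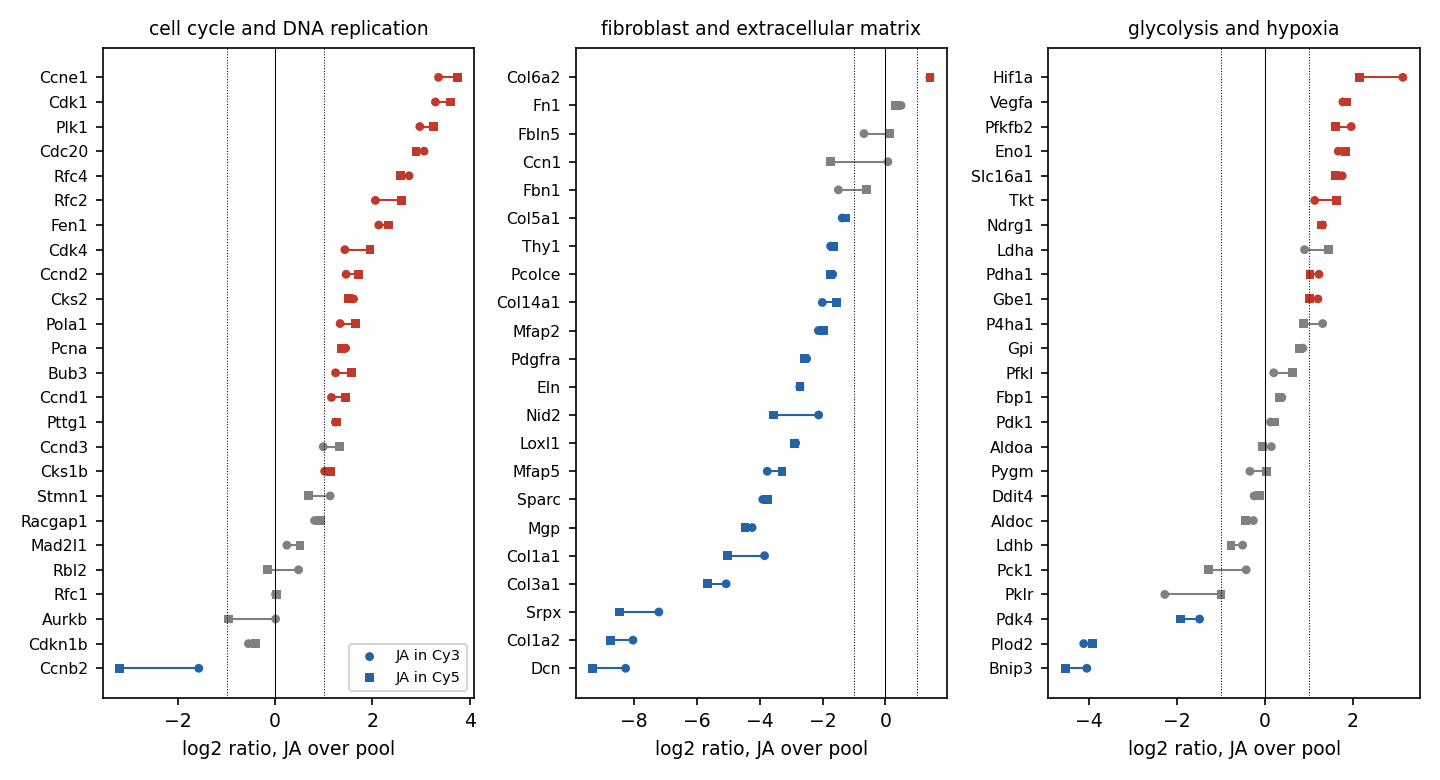
Log2 ratio of JA over the pool for every measured gene of 3 lists, with circles for JA in Cy3, squares for JA in Cy5 and a line joining the arrays; red genes were higher and blue genes lower on both arrays, and dotted lines mark -1 and 1. In the cell-cycle list 16 of 25 genes are red, in the matrix list 17 of 22 are blue, and the glycolysis and hypoxia list splits into 9 red and 3 blue.

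Matrix and fibroblast genes were the group most often lower among the 33 lists. Of 22 measured, 17 fell, 1 rose and 4 did neither, with a median of -2.63, beside 14.3% of all named genes lower. Besides Dcn, Col1a2, Srpx and Col3a1, the collagen Col1a1 stood at -3.84 and -5.03, matrix Gla protein (Mgp), which inhibits calcification, at -4.24 and -4.47, and Sparc, a collagen-binding glycoprotein with 4 clones between -4.57 and -3.49, at -3.90 and -3.76. Elastin (Eln) fell to -2.72 and -2.71 and its microfibril partner Mfap5 to -3.76 and -3.29, and the crosslinking enzyme Loxl1 to -2.86 and -2.88. The receptor Pdgfra was at -2.51 and -2.58, but its clones stood at -0.72 and -4.37. Col6a2, a chain of type VI collagen, was the 1 member that rose, at 1.42 and 1.42. Fibronectin (Fn1) stood at 0.50 and 0.32. Of 14 genes of basement membrane and integrins 2 fell (14.3%, the same share as over all named genes), the heparan sulfate proteoglycans Sdc2 (-2.82 and -2.95) and Gpc3 (-1.52 and -1.59), and 0 rose. Their median was -0.34, and the difference from the matrix list was not tested. The basement membrane protein Nid2, which fell to -2.12 and -3.56, was counted in the matrix list, so these shares depend on its placement.

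In the insulin-like growth factor axis, both measured ligands and 3 of 5 measured binding proteins fell. Of its 10 measured genes 6 (60%) fell, 1 (10%) rose and 3 did neither, with a median of -2.22. The shares over all named genes were 14.3% lower and 8.42% higher. The ligands Igf2 and Igf1 stood at -3.56 and -3.20 and at -2.97 and -2.11. The binding proteins Igfbp6, Igfbp4 (-4.09 and -5.25) and Igfbp5 (-3.74 and -2.70) fell, whereas Igfbp3 (-0.49 and -0.21) and Igfbp2 (0.65 and 0.92) did not pass. The receptor Igf2r, which clears Igf2 from the cell surface, rose to 1.67 and 1.63, and the adaptor Grb10, which dampens receptor signalling, fell to -1.44 and -2.36.

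Of 19 other growth factors and receptors 8 fell (42.1%) and 1 rose (5.26%), with a median of -0.41, where 14.3% of all named genes fell and 8.42% rose. Among ligands, Egf, the founding ligand of the EGF receptor, was at -3.14 and -3.27 and pleiotrophin (Ptn), a relative of Mdk, at -1.84 and -1.75. The receptor kinases Axl (-2.04 and -2.61) and Mertk (-1.87 and -1.41), which bind the same kind of ligand, fell, as did Gfra1 at -1.23 and -1.85. Erbb2 stood at -0.08 and -0.22 and did not pass. In Wnt, Notch, Hedgehog and BMP signalling 6 of 21 fell and 2 rose (median -0.48). The Wnt modulator Sfrp2 fell to -5.13 and -4.98, the receptors Notch1 and Notch3 to -1.36 and -1.16 and to -1.62 and -1.02, and the activin receptor Acvr2b to -1.44 and -2.14. Wnt4 rose to 1.48 and 1.23. The BMP target genes Id3 and Id2 went opposite ways, at 1.45 and 1.44 against -1.10 and -1.14. The gene mean of Bmp6, at -1.31 and -1.59, came from clones of opposite sign (-4.19 and 1.29).

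Within MAPK, PI3K and immediate early genes 4 of 26 (15.4%) rose and 2 (7.69%) fell (median 0.10). Among all named genes 8.42% rose and 14.3% fell. The kinase Map2k1 stood at 1.78 and 1.9998, with its clones at 1.82 and 1.96, the early response gene Ier3 at 1.68 and 2.47 and the kinase Mapk6 at 1.25 and 1.29. Jund rose to 1.26 and 1.18. Dusp1, a phosphatase that switches MAP kinases off, fell to -2.44 and -1.92, and the kinase Map3k1 to -1.59 and -1.53. Jun, at 0.30 and 0.23, did not pass.

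Markers of other tissues were counted in 5 lists, beside 8.42% of all named genes higher and 14.3% lower. In the leukocyte and MHC class II list 7 of 14 measured genes (50%) fell and 0 rose, with a median of -1.30. The class II chain RT1-Ba stood at -5.59 and -4.99, the invariant chain Cd74 at -4.05 and -3.63, the coreceptor Cd4 at -4.27 and -4.80 and the macrophage receptor Csf1r at -3.60 and -3.28. Lysozyme (Lyz2) fell to -3.14 and -2.36 and the complement chain C1qc to -2.23 and -1.97. RT1-Db1 fell to -5.34 and -4.05, with clones at -6.39 and -3.003. The T-cell receptor gene Cd3e (-0.27 and -0.49) and the myeloid adaptor Tyrobp (0.63 and 0.99) did not pass. Among smooth and skeletal muscle genes 5 of 14 (35.7%) fell and 1 (7.14%) rose (median -0.77). The sarcomeric light chain Myl11 was at -5.25 and -5.15, desmin (Des) at -5.15 and -4.30 and Myl1 at -2.21 and -2.63, and the calponin Cnn3 rose to 1.498 and 1.61. Of 3 endothelial genes Kdr (-2.18 and -2.05) and Tie1 (-1.14 and -1.35) fell, and Emcn, at -0.54 and -2.79, passed on 1 array alone (median -1.66). In the list of fat cells and lipid supply 3 of 10 fell and 0 rose (median -0.53): Cd36, lipoprotein lipase (Lpl) at -2.35 and -2.73 and its inhibitor Angptl4 at -2.81 and -1.77. Of 20 nerve, glia and neuroendocrine genes 3 (15%) rose and 1 (5%) fell (median 0.16). They were Nppb, Penk and the glutamate transporter Slc1a3 at 2.48 and 2.01, against Thy1 at -1.74 and -1.65. Nppa, the other cardiac natriuretic peptide gene, stood at 0.70 and 0.90 and did not pass.

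Epithelial genes moved both ways, where 8.42% of all named genes rose and 14.3% fell. The adhesion list lay near those shares, at 8.33% and 16.7%, and so did the mesenchymal transition list, at 7.69% and 15.4%. Of 4 measured squamous genes Lgals7 and Notch1 fell, and cystatin B (Cstb, -1.10 and -0.97) and annexin A1 (Anxa1, 1.05 and 0.84) each missed the limit on 1 array (median -1.15). In the columnar and gastrointestinal list 3 of 12 (25%) fell and 1 (8.33%) rose (median -0.87). The chaperone clusterin (Clu) was at -3.63 and -4.13, the gastric protease Ctse at -1.96 and -2.09 and the apolipoprotein Apoa4 at -1.76 and -1.37, whereas the tetraspanin Tspan8 rose to 2.60 and 2.86. Keratin 7 (Krt7), at -0.90 and -1.07, did not pass. Of 12 adhesion genes P-cadherin (Cdh3) rose to 1.84 and 1.81, and the surface glycoprotein Cd24 (-3.05 and -3.08, 7 clones between -3.54 and -2.20) and the gap-junction protein Gjb1 (-1.31 and -2.30) fell, with a median of -0.42. In the mesenchymal transition list Sparc and Axl fell and follistatin (Fst) rose to 2.81 and 2.67, of 13 measured (median 0.08, and -0.12 on the array with JA in Cy3 alone). The clones of Fst stood at 5.65 and -0.17, so its call rests on 1 of them.

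**Figure D4:**
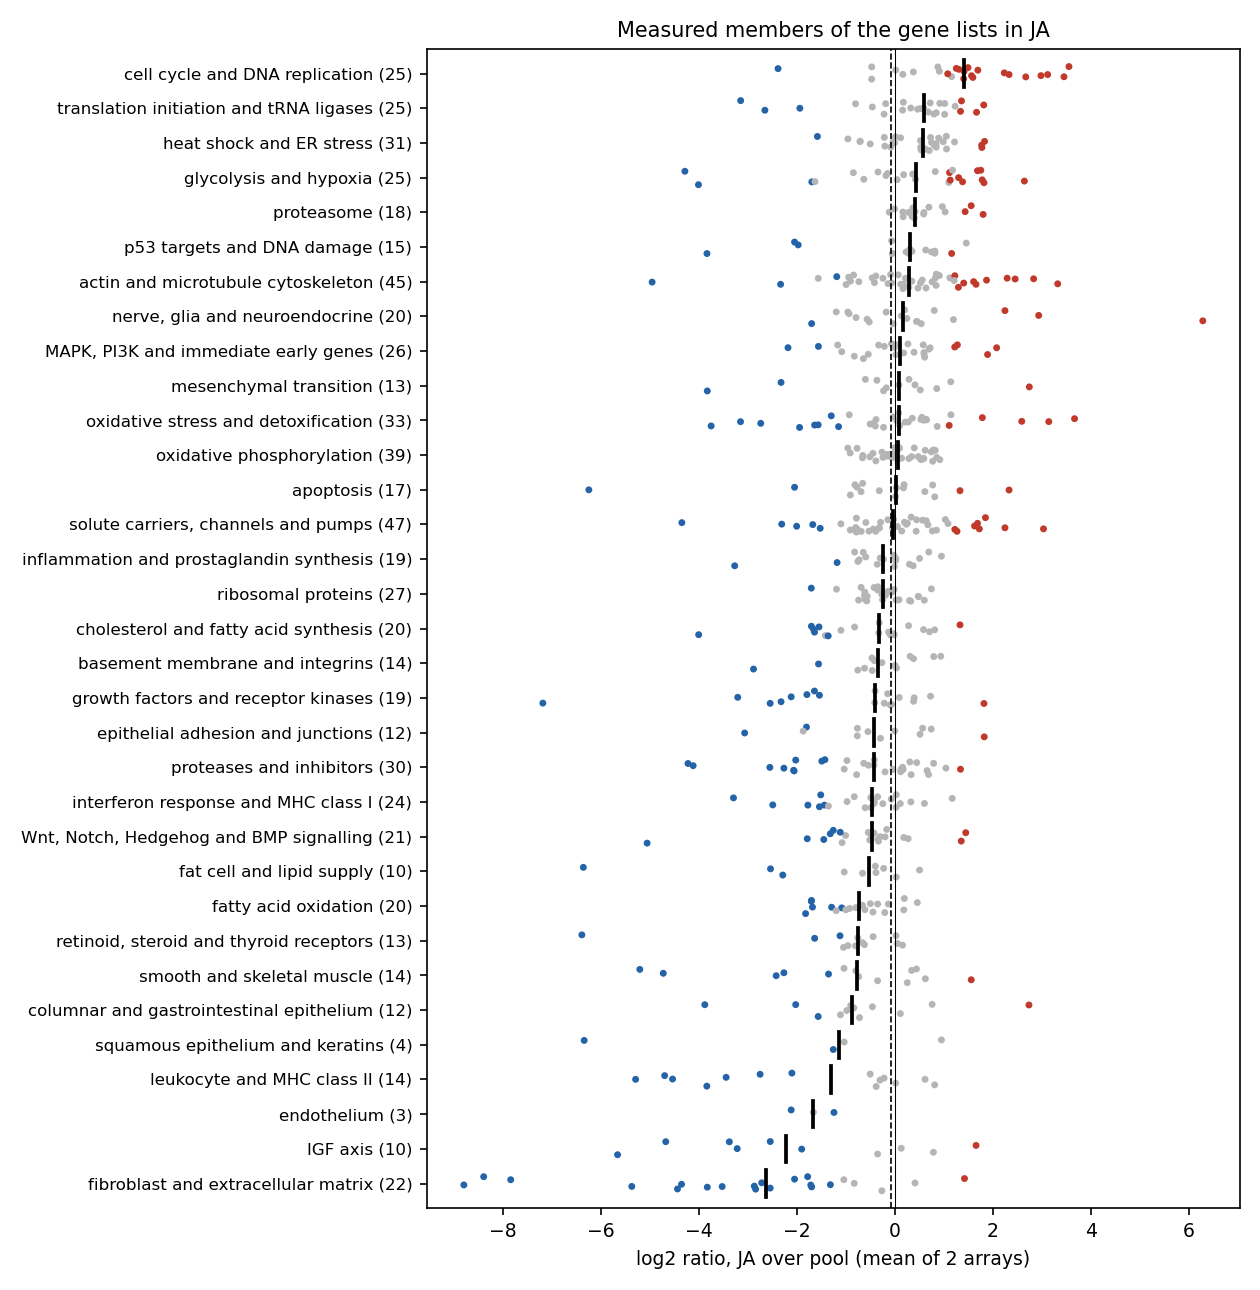
Mean log2 ratio of JA over the pool for every measured gene of 33 lists, with the number measured in brackets; each point is 1 gene, red where higher and blue where lower on both arrays, short black bars are list medians, the solid line is 0 and the dashed line is the median of all named genes, -0.08. The cell-cycle list has the highest median at 1.40 and the fibroblast and matrix list the lowest at -2.63, while none of the 39 oxidative phosphorylation genes is coloured.

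The cytoskeleton list held 10 higher (22.2%) and 3 lower (6.67%) genes of 45, with a median of 0.28, beside 8.42% and 14.3% of all named genes. Beside Arpc1b and Msn, the monomer-binding proteins Tmsb10 (2.13 and 2.77) and profilin (Pfn1, 1.49 and 1.81), the kinase Pak1 (2.07 and 2.51) and the nuclear lamin Lmnb1 (1.70 and 2.04) rose. The filament-severing protein gelsolin (Gsn) fell to -4.84 and -5.06 and the cofilin Cfl2 to -2.58 and -2.09. Beta-actin (Actb), at 0.74 and 1.502, did not pass, and its 5 clones ranged from 0.25 to 2.55.

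Of the lists of protein synthesis, folding and breakdown, the ribosomal proteins had a median below 0 and the other 3 a median above it. In heat shock and ER stress 9.68% rose, near the 8.42% of all named genes, beside 16% in translation and 16.7% in the proteasome. The shares that fell were 3.23%, 12% and 0% there and 3.7% for ribosomal proteins, beside 14.3% of all named genes. In heat shock and ER stress 3 of 31 rose and 1 fell (median 0.57): the mitochondrial chaperonin Hspd1 at 1.90 and 1.65, cyclophilin A (Ppia) at 1.76 and 1.90, with its 3 clones from 1.77 to 1.86, and the stress transcription factor Atf4 at 1.01 and 2.52, against its target Ddit3 at -1.57 and -1.59. In translation and tRNA ligases 4 of 25 rose and 3 fell (median 0.59). Nucleolin (Ncl) stood at 1.74 and 1.88 and the initiation inhibitor Eif4ebp1 at 1.15 and 1.57, whereas its relative Eif4ebp2 was at -2.69 and -2.62 and the initiation factor Eif2s1 at -3.42 and -2.87. The alanine and phenylalanine tRNA ligases Aars1 and Farsb went opposite ways, at -2.03 and -1.85 and at 2.01 and 1.32. Of 18 proteasome genes 3 rose and 0 fell (median 0.40): the activator Psme3 at 1.68 and 1.92, the regulatory subunit Psmd2 at 1.33 and 1.78 and the assembly factor Psmg1 at 1.21 and 1.66. Of 27 ribosomal protein genes 1 fell, Rpl7, and 0 rose (median -0.25). The 3 clones of Rpl7 stood at -0.77, -0.71 and -3.63.

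Mitochondrial and lipid genes differed by pathway. For comparison, 8.42% of all named genes rose and 14.3% fell. All 39 measured oxidative phosphorylation genes stayed inside the limit, with means from -0.96 to 0.92 and a median of 0.06, or -0.01 with JA in Cy3 alone. Of 20 fatty acid oxidation genes 6 fell (30%) and 0 rose (median -0.73). They were the dehydrogenases Acadvl (-2.06 and -1.59) and Hadh (-1.78 and -1.63), the peroxisomal enzyme Ehhadh (-1.85 and -1.55), Eci1 (-1.72 and -1.65), Acot2 (-1.39 and -1.19) and the carnitine transferase Cpt1b (-1.08 and -1.09). In cholesterol and fatty acid synthesis 6 of 20 (30%) fell and 1 (5%) rose (median -0.32). The acetyl-CoA synthetase Acss1 was at -3.20 and -4.80, the elongase Elovl5 at -1.77 and -1.64 and the ligase Acsl4 at -2.02 and -1.27, and the sterol reductase Dhcr7 rose to 1.12 and 1.54. The clones of Soat1, which fell as a gene mean, had opposite signs at -5.31 and 1.99.

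Of 33 redox and detoxification genes 5 rose (15.2%), 8 fell (24.2%) and 20 did neither, with a median of 0.08 that was -0.04 with JA in Cy5 alone. Over all named genes 8.42% rose and 14.3% fell. Glutathione synthetase (Gss) stood at 2.55 and 2.63 and glutathione reductase (Gsr) at 1.60 and 1.96, and Akr1b1, Mt2A and Akr1a1 also rose. The extracellular superoxide dismutase Sod3 fell to -3.62 and -3.88, the glutathione transferases Gstm2 and Gstm7 to -2.80 and -3.49 and to -2.39 and -3.09, and catalase (Cat) to -1.03 and -1.27. Akr7a3, Prdx5, Ephx1 and Nqo2 were the other 4 that fell.

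Lists of stress, death and immune signalling held 4 of 15, 4 of 17, 6 of 24 and 2 of 19 changed genes, where 717 of all 3158 named genes (22.7%) changed. Of 15 p53 and DNA damage genes 3 fell and 1 rose (median 0.31): the sestrin Sesn1 (-3.91 and -3.75), the death receptor Fas (-2.16 and -1.93) and Gadd45g (-1.97 and -1.97), against the kinase Plk2 (1.14 and 1.17). The checkpoint kinase Chek1 stood at 2.86 and 0.05 and thus passed on 1 array alone. Of 17 apoptosis genes Bcl10 and Fas fell and the mitochondrial flavoprotein Aifm1 (2.54 and 2.11) and Pawr (1.28 and 1.37) rose, with a median of 0.01 that was -0.35 with JA in Cy3 alone. In interferon response and MHC class I 6 of 24 fell and 0 rose (median -0.46): Ifit2 at -2.34 and -4.24, the transcription factors Stat3 (-2.28 and -2.71), Irf9 (-1.24 and -1.84) and Irf1 (-1.22 and -1.66), Ifi27l2b at -2.11 and -1.44 and Ifitm3 at -1.41 and -1.62. Of 19 inflammation and prostaglandin genes the alarmin Il33 (-3.13 and -3.41) and the cytokine coreceptor Il6st (-1.18 and -1.17) fell and 0 rose (median -0.23).

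Of 30 proteases and inhibitors 9 fell (30%) and 1 rose (3.33%), with a median of -0.43, where 14.3% of all named genes fell and 8.42% rose. The lysosomal cathepsins Ctsk (-3.88 and -4.56), Ctsd (-2.81 and -2.29) and Ctsl (-2.14 and -2.39, 5 clones between -2.46 and -1.69) fell, and so did Reck, a membrane inhibitor of metalloproteases, at -4.13 and -4.10. The metalloprotease inhibitor Timp3 rose to 1.502 and 1.17. Of 47 transport genes 8 rose (17%) and 5 fell (10.6%; median -0.03, and 0.04 once the arrays were centred). Besides Slc5a2 and Slc1a3, the sodium pump subunit Atp1b3 (2.0 and 1.69), the copper ferroxidase Heph (1.68 and 1.77, with JB at -1.80 and -1.94) and the water channel Aqp8 (1.58 and 1.66) rose. The water channel Aqp1 fell to -4.44 and -4.25, the iron exporter Slc40a1 to -2.32 and -2.30 and the peroxisomal transporter Abcd3 to -2.25 and -1.76. Of 13 genes of retinoid, steroid and thyroid signalling 3 fell and 0 rose (median -0.76): Crabp2, the estrogen receptor Esr1 (-1.62 and -1.66) and the orphan receptor Nr2f6 (-1.10 and -1.14).

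A further 4 lists were written after the values had been seen, with genes among them that had drawn attention, so their counts describe and support nothing. For comparison, 8.42% of all named genes rose and 14.3% fell. In nucleotide, one-carbon and polyamine synthesis 10 of 19 measured genes rose and 0 fell (median 1.27). Odc1 led, followed by the pyrimidine enzyme Umps (2.30 and 3.08), the purine enzymes Atic (2.42 and 2.60) and Gart (1.69 and 1.75), Aldh18a1, the first enzyme of proline synthesis (2.81 and 2.20), and the polyamine acetylase Sat1 (2.43 and 2.54). In nuclear pore and transport 8 of 21 rose and 1 fell (median 0.83). The transport GTPase Ran stood at 2.45 and 2.80, its partner Ranbp1 at 2.18 and 1.72 and the pore protein Nup93 at 2.72 and 2.49, against Nup205 at -1.88 and -1.41. In chromatin 9 of 24 rose and 0 fell (median 0.87), with Nucks1 at 2.75 and 2.78, the histone variant H2az1 at 2.40 and 1.58 and Hmgb2 at 1.99 and 1.90. The remodelling ATPase Smarca5, at 4.72 and -0.08, did not pass. In sarcomere assembly 10 of 17 fell and 1 rose (median -2.05). Nebl (-5.06 and -4.64), Myom2 (-4.86 and -4.43), Mustn1 (-4.11 and -5.84) and Myoz2 (-4.996 and -3.49) fell, and the heart transcription factor Nkx2-5 rose to 1.82 and 2.05.

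Clones of a gene set a limit on these values. Of 144 changed genes with several clones, 73 had every clone past the limit and 10 had clones of both signs. The range between clones of a changed gene had a median of 1.00, and the difference between the arrays of a changed gene a median of 0.263. Over all genes with several clones the range had a median of 0.644.

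The second comparison asked where JA stood apart from the tumor lines JB and Amy, which were hybridized against the same pool, so that the pool cancels in the difference. No gene passed limma on the line means (JA minus the mean of JB and Amy, two-sided, Benjamini-Hochberg over 3158 genes), with 0 higher and 0 lower and a smallest adjusted p of 0.9997. Fewer genes reached an unadjusted p under 0.05 in this fit than p-values spread evenly would give. With 3 lines the fit has 1 residual degree of freedom and assumes that JA varies like the others. A p that misses the threshold does not show that the lines are alike. On simulated data the fit called 0% of genes changed by 1 in log2 and 2% of those changed by 2. By size alone, 2 genes (0.0633%) were at least 1 above both lines within each dye orientation and 4 (0.127%) at least 1 below. Fitted over 6 arrays with the dye orientation as a block, limma called 43 higher and 59 lower, but that fit treats the repeat arrays of a line as replicates and covers array error only.

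Among the genes apart by size, Clip4, a microtubule-binding CAP-Gly protein, stood at -4.81 and -3.88 in JA, -2.44 and -1.82 in JB and -2.49 and -2.12 in Amy. The difference from the mean of both was -2.12. Clip4 fell in JA, and its place below both other lines on both arrays follows from the rule that chose it. Gas7, a protein that shapes cell outgrowths, stood at -4.47 and -4.19 in JA, -3.24 and -3.01 in JB and -3.26 and -2.97 in Amy. Degs1, the desaturase that makes ceramide, was at -1.92 and -1.72 in JA, -0.36 and -0.30 in JB and -0.86 and -0.53 in Amy. Gad1, which makes the transmitter GABA, was at -0.63 and -2.45 in JA, 1.73 and -0.17 in JB and 2.29 and -1.34 in Amy, a difference of -2.17 from the mean of both lines. In every line it read lower with the line in Cy5. Ppp1r10, a nuclear subunit of protein phosphatase, was higher in JA at 1.52 and 1.56, against 0.34 and 0.13 in JB and 0.41 and 0.42 in Amy. Cd36 fell in all 3 lines and read least low in JA, with JB at -7.09 and -8.28 and Amy at -7.10 and -8.94. Ratios this low may only be bounds that a dim channel allows, so the order of the lines is uncertain. All 6 genes rest on 1 clone each and have an adjusted p of 0.9997 in limma.

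**Figure D5:**
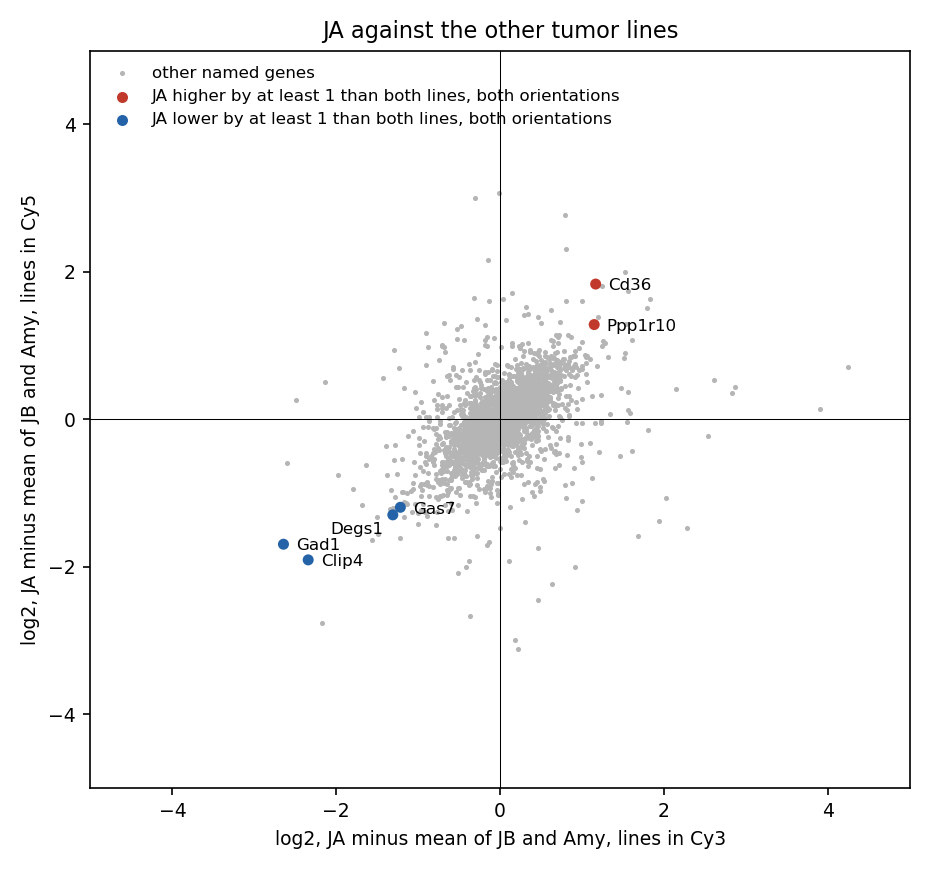
Difference in log2 ratio between JA and the mean of JB and Amy for 3158 named genes, from the arrays with the lines in Cy3 (horizontal axis) and in Cy5 (vertical axis); coloured points are genes at least 1 above (red) or below (blue) both other lines in each orientation. The 2 red and 4 blue genes are named, Clip4 and Gad1 lying farthest down.

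Taken against 1 line at a time, 46 genes were at least 1 above JB and 71 below it in both orientations, and 22 were above Amy and 16 below it. Mt2A, one of the 15 highest genes, was at 0.17 and 0.85 in JB and 2.18 and 2.74 in Amy, so that JA and Amy lay above JB without overlap. Odc1 stood at 1.34 and 2.10 in JB and 1.28 and 1.79 in Amy, below both JA arrays. Lgals7 was at -6.41 and -6.53 in JB and -4.64 and -4.69 in Amy, so that JA lay with JB, and Tmem45b at -3.37 and -3.50 in JB and -5.67 and -6.09 in Amy, so that JA lay with Amy. Ccne1 was at 3.19 and 3.17 in JB and 2.42 and 2.60 in Amy, both lines above 2 as in JA. These ratios share the pool, and each line is a single replicate.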

How the data were processed

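Total RNA of JA and of the normal pool was hybridized together to a rat 8Kx2 cDNA array in both dye orientations, per the labels. The deposited values are log ratios, 1 per spot, taken here as log2, since the authors' log base is not stated. Scanner, background correction, normalization and spot filter are not given in the sources used here. Over all spots, the array with the line in Cy3 had a median of -0.11 in JA, -0.05 in JB and -0.13 in Amy, and the array with Cy5 a median of -0.15, -0.12 and -0.13. How the arrays were centred is therefore unknown. No value was changed in sign, scaled or filtered. Titles name the line before the pool, and the ratio was read in that order.

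Of 16128 spots 8084 carried 1 gene symbol in the platform annotation, 40 several and 8004 none. By gene identifier 8076 were matched to RefSeq genes of assembly GRCr8, and 0 symbols changed. Spots were averaged per symbol and array, then over the 2 arrays. A gene was called where the log2 ratio reached 1, or -1, on both arrays. JA was compared with JB and Amy on line means with limma 3.58.1 (lmFit, eBayes) in R 4.3.3, after a check on simulated data. That check drew its spread from the fit's own variance estimate. It called 0%, 2%, 76% and 98% of 50 genes each changed by 1, 2, 4 and 8 in log2. An earlier version, with its spread drawn from shuffled differences between JB and Amy, had recovered nothing and was replaced. The shares thus depend on the assumed spread and on the sizes planted, and may overstate what the fit could find in these data. Samples were grouped by the labels. The p-values rest on the spread between JB and Amy, moderated over genes, to which JA adds nothing.

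Named genes were the 15 highest and 15 lowest called genes, those apart from both lines by size, up to 4 of the largest called genes per list, measured markers and 4 measured genes of a fixed set (Actb, Krt8, Ccnd1, Erbb2). Other list members were added after their values were seen. The members, the 33 lists (2095 symbols, 669 measured) and the rules were chosen with earlier results of these data known. Alternatives were centred, scaled or quantile normalized arrays, spot medians, agreement of all clones, other size limits, each array alone, other variance moderation, a dye-orientation block and lines left out. Promoters and their motifs came from a RefSeq table of GRCr8. Plots were made in Python 3.11.15 using matplotlib 3.10.9.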

Additional observations from a re-analysis of the deposited data

Results flagged for a closer look

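JA and another line lay on opposite sides of the pool, on both arrays each, for 6 of the 198 changed genes on the 33 lists. Of these, 5 were against JB and 1 against Amy. The same count over all named genes is not given here, so whether 6 is many or few is not known. Lipoprotein lipase (Lpl) had a mean log2 ratio of -2.54 in JA and 1.21 in JB, with 1.40 and 1.01 on the JB arrays and -3.12 and -3.34 on those of Amy. The receptor kinase Axl stood at -2.32 in JA and 0.66 in JB, with Amy at -3.09 and -3.11. Notch1 stood at -1.26 in JA and 0.83 in JB, with Amy at -0.49 and -0.56. The copper ferroxidase Heph was at 1.72 in JA and -1.87 in JB, with Amy at 2.10 and 1.47. The basement membrane protein Nid2 was at -2.84 in JA and 1.45 in JB, with Amy at -1.73 and -2.66. The glycogen branching enzyme Gbe1 was at 1.11 in JA and -0.11 in Amy, with JB at 1.55 and 1.15. The difference between JA and the other line was not tested for these genes, since each line is 1 replicate. In limma, JA minus the mean of JB and Amy had an adjusted p of 0.9997 for each of Lpl, Axl, Notch1, Heph, Nid2 and Gbe1. The gene's own spread in that fit is the difference between JB and Amy, which lay apart for these genes. That p therefore could not show whether JA differs from the other line. No group had enough samples for a search for outlying arrays.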

How the results depend on the processing

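The counts of 266 higher and 451 lower genes lay within 1.5 times of themselves with arrays centred (298 and 416), scaled (258 and 383) or quantile normalized (218 and 419), with spot medians (270 and 451), with all clones required past the limit (248 and 398) and with the limit set on the mean of the arrays (352 and 567). They moved with a size limit of 1.5-fold (535 and 740) or 4-fold (46 and 160) and with clones lacking a single symbol included (533 and 978). On 1 array alone the counts were 369 to 394 higher and 559 to 655 lower. Requiring all clones leaves the 219 higher and 354 lower genes with 1 clone unchanged, so it could not move either count past 1.5 times. For these genes the spot median also equals the spot mean. Of the 144 changed genes with several clones, 73 had every clone past the limit. Against JB and Amy, limma's 0 and 0 held under centring, quantile normalization, robust or trended moderation, all clones included and 1 array or 1 dye orientation left out (0 to 0), with smallest adjusted p from 0.452 to 1.0. With the dye orientation as a replicate block it called 43 and 59 (smallest adjusted p 0.0308). By size with no test the counts were 2 and 4, 22 and 16 without JB, and 46 and 71 without Amy. On simulated data limma on line means called 2% of genes changed by 2 in log2. Its 0 and 0 could therefore hardly move for differences of that size. Of the recomputed values of named genes 653 stayed within the spread of the arrays and 139 moved past it. Of the list medians 135 stayed and 63 moved. No called gene turned its sign, but a gene past the limit on both arrays keeps its sign on either array alone. Centring could not turn it either, since the medians of named genes on the JA arrays were -0.06 and -0.08. The absence of sign changes therefore says little. List medians that changed sign were those of mesenchymal transition (-0.12 with JA in Cy3 alone), oxidative stress (-0.04 with JA in Cy5 alone), apoptosis (-0.01 under quantile normalization, -0.35 with JA in Cy3 alone), oxidative phosphorylation (-0.01 with JA in Cy3 alone) and transport (0.04 centred or scaled, 0.05 with JA in Cy3 alone). Signal over background is not known for these files, so ratios from dim spots cannot be set apart.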

Other observations

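Clones without a single gene symbol showed the same imbalance in size. Of 4022 such clones 267 (6.64%) were higher in JA and 527 (13.1%) lower on both arrays. Their highest mean was 3.74 and their lowest -9.37, and 11 had a mean of -6 or lower while 0 reached 4.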
